A study of Homo sapiens with 4 samples.

Results

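The genes of homologous recombination and of the Fanconi anemia pathway were examined in RNA-seq of BE(2)C neuroblastoma cells with and without MYCN knockdown. The set was given as a list of 47 gene symbols that belong to these repair pathways. Membership rests on the pathway and not on a threshold of expression, but the list was drawn up with results of these data known. All 47 symbols were found among the 26364 genes listed for each sample. Of these, 46 reached the mean of 1 RPKM (reads scaled to gene length and to the library total) needed to enter the test, and RAD51B did not.

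BE(2)C is a clonal, MYCN-amplified human neuroblastoma cell line. Ctrl cells, labelled wild type, received a non-targeting siRNA and MYCN KD cells received siRNA against MYCN, with 2 samples in each condition. The labels give 80 nM siRNA and 6 h of incubation, and the study's methods give a lower concentration and RNA extraction on the next day. A single cell line and a partial knockdown with transfected siRNA limit the comparison. The study's methods call the replicates biological without saying whether they were separate cultures. The p-values thus measure only the spread left between these samples after the authors adjusted the values with RUVSeq. How far that spread is technical is not known.

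MYCN itself was at 1068 and 1073 RPKM in the Ctrl replicates against 720.2 and 718.0 RPKM in the MYCN KD replicates, a level 32.8% lower (log2 fold change -0.57, SE 0.029, limma adjusted p = 0.00361). Between 29055819 and 34142988 normalized reads, recovered from the deposited values, lay behind a sample. All 11 adrenergic neuroblastoma markers were detected, with summed levels of 3705 to 5658 RPKM, while the summed levels of 5 blood cell and 5 epithelial markers stayed between 1.02 and 2.04 RPKM, with HBB and KRT5 at 0. The epithelial sum was 1.07 and 1.02 RPKM in Ctrl, against 2.04 and 1.97 RPKM in MYCN KD. The 8 mesenchymal or fibroblast markers summed to between 56.3 and 64.7 RPKM, with PRRX1 at 0. TWIST1 alone gave 39.1 to 49.5 RPKM of this sum, and 4 of the 8 averaged below 1 RPKM. COL1A1 and DCN were higher in MYCN KD (log2 fold changes 0.67 and 0.66) and TWIST1 was lower (-0.23), with limma adjusted p = 0.00365, 0.0269 and 0.0615. Fewer cells of a type and less RNA per cell cannot be told apart in such bulk samples. One feature of the deposited values bears on every test. The deviations of the replicates from their condition means were mirror images in Ctrl and MYCN KD, with a correlation of -0.98 across 11411 genes. The 2 conditions thus did not provide independent measures of the replicate spread. The fit treated them as independent, so its p-values may be too small.

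Homologous recombination repairs broken DNA by copying an intact sister chromatid. The MRE11-RAD50-NBN complex senses the break and, with RBBP8 and EXO1, trims the ends to single strands. BRCA1, PALB2 and BRCA2 prepare these strands for exchange, further proteins such as the XRCC2, XRCC3 and RAD54 proteins help them to invade the partner, and helicases and nucleases take the joined molecules apart. The Fanconi anemia pathway handles links between the strands of DNA: a core complex with the enzyme UBE2T attaches ubiquitin to FANCI and FANCD2, which call in the same recombination proteins. Most of these genes are active mainly in S and G2 phase, and ATM, ATR, CHEK1 and CHEK2 stop the cell cycle while repair goes on.

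MYCN knockdown was accompanied by lower levels of part of this set. Of the 46 tested genes, 14 (30.4%) fell and 2 (4.35%) rose, and 30 did not pass the threshold of a limma adjusted p of 0.05, with Benjamini-Hochberg adjustment over all 11411 tested genes. Over all tested genes, 22.8% fell and 25.3% rose. CHEK2, MRE11A, MND1, RBBP8, EXO1, RAD54L, XRCC3, UBE2T, CHEK1, XRCC2, TOP3A, PALB2, BRCA2 and FANCG made up the 14 genes that fell, and FANCF and MUS81 rose. Both MYCN KD values lay below both Ctrl values for 27 genes (58.7%, against 35.8% of all tested genes) and above them for 5 genes (10.9%, against 40.4%). The median log2 fold change of the set was -0.22 (quartiles -0.35 and -0.02), and that of all tested genes was 0.03 (quartiles -0.23 and 0.29). The size of the excess of falling genes depended on the scaling, on the filter and on single samples. Under quantile normalization the excess was larger, with 45.7% of the set against 26.3% of all tested genes. It was also larger with the filter at 5 RPKM, at 41.4% against 26.8%. In every fit on all samples, the share of rising genes was lower in the set than among all tested genes. After each sample was rescaled to the same total RPKM, 9 genes of the set fell (19.6%), against 18.6% of all tested genes, and EXO1, CHEK1, XRCC2, PALB2 and BRCA2 no longer passed. Without Ctrl replicate 2 or without MYCN KD replicate 2 the set also had 9 falling genes (19.6%), against 19.0% of all tested genes in each case. Without Ctrl replicate 1 it had 39.1%, against 21.0% of all tested genes, and without MYCN KD replicate 1 it had 37.0%, against 20.9%. CHEK2, MRE11A, MND1, RBBP8, RAD54L, XRCC3, UBE2T and FANCF passed under every alternative that was run.

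**Figure D1:**
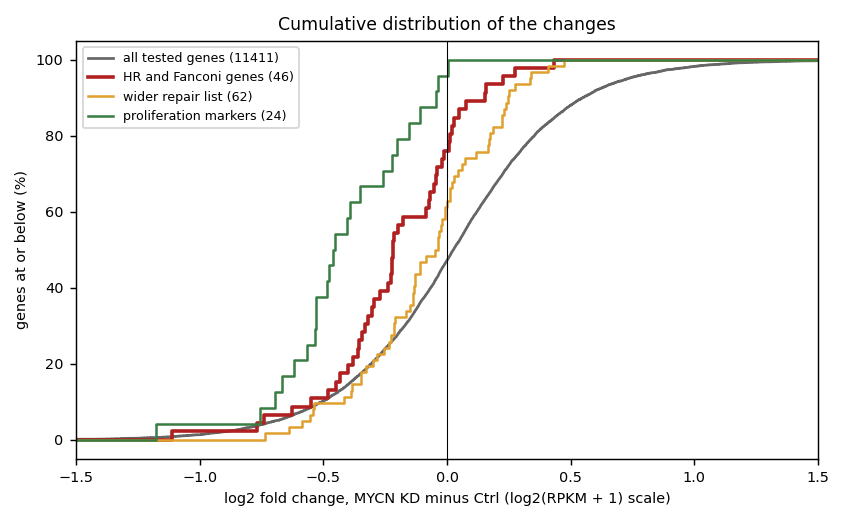
Cumulative distribution of log2 fold changes (MYCN KD minus Ctrl, on the log2(RPKM + 1) scale) for 11411 tested genes, the 46 tested repair genes, the wider repair list (62 tested) and the proliferation markers (24). The curve of the repair genes lies left of that of all genes over most of its range, with medians of -0.22 and 0.03, and 40 genes with changes beyond 1.5 in size lie outside the axis.

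**Figure D2:**
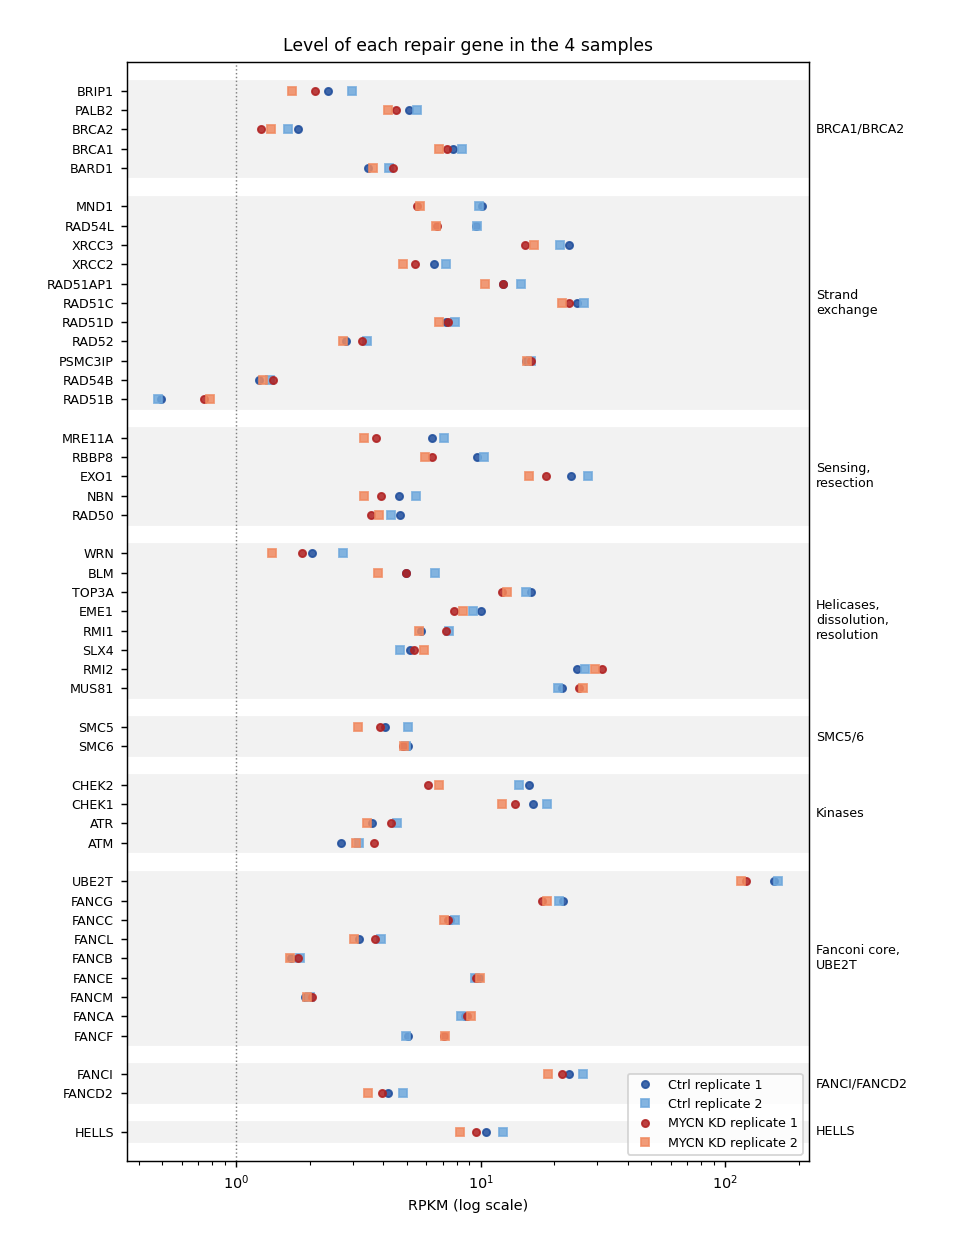
RPKM (log scale) of each of the 47 repair genes in the 4 samples, grouped by role. Circles and squares are replicates 1 and 2, blue is Ctrl and red or orange is MYCN KD, and the dotted line marks the mean of 1 RPKM needed for testing, which RAD51B did not reach.

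In Ctrl cells the levels spanned from 0.486 RPKM for RAD51B to 161.3 ± 5.04 RPKM (SD, n = 2) for UBE2T, with a median of 7.18 RPKM over the 46 tested genes. UBE2T stood far above the rest. RMI2, RAD51C, EXO1 and FANCI followed at 25.8, 25.7, 25.5 and 24.6 RPKM, and these neighbours did not differ beyond their SDs of 1.19 to 2.98. At the low end were FANCM, FANCB, BRCA2 and RAD54B, at 1.96, 1.76, 1.72 and 1.30 RPKM. Between 155 and 4913 reads lay behind each value of a tested gene, which corresponds to a counting error of 8.03% at the lowest and 1.43% at the highest. Counting error is only part of the error of values that were adjusted before deposit.

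The genes of break sensing and end resection had the largest median change of the role groups with 3 or more genes, with a median log2 fold change of -0.55. All 5 had both MYCN KD values below both Ctrl values, and 3 fell. MRE11A (hg19 chr11:94148736-94227051, minus strand), the nuclease that opens resection, was at 6.35 and 7.11 RPKM in Ctrl, against 3.73 and 3.35 RPKM in MYCN KD. It fell by 0.77 on the log2 scale (SE 0.081, limma adjusted p = 0.00808), which was 47.5% below the Ctrl mean. RBBP8 (chr18:20378224-20606451, plus strand), known as CtIP, stimulates that nuclease, and its levels were 9.70 and 10.3 RPKM in Ctrl against 6.32 and 5.95 RPKM in MYCN KD (log2 fold change -0.63, SE 0.057, adjusted p = 0.00654). EXO1, the exonuclease of long-range resection, had Ctrl levels of 23.4 and 27.6 RPKM and MYCN KD levels of 18.5 and 15.7 RPKM (log2 fold change -0.55, SE 0.12, adjusted p = 0.0367). The Ctrl replicates of EXO1 were farther apart than those of RBBP8, and its interval was wider, from -0.92 to -0.18. The partners of MRE11A in its complex did not pass. RAD50, the ATPase that tethers the ends, was at 4.67 and 4.31 RPKM in Ctrl, against 3.55 and 3.84 RPKM in MYCN KD, with an adjusted p of 0.0561. An annotated gene on the same strand, ENSG00000283782, shares 76.9% of the 10565 exonic bases of RAD50, while the RAD50 values implied a length of 6597 bases. NBN, which brings in ATM, was at 4.63 and 5.45 RPKM against 3.92 and 3.35 RPKM, with an adjusted p of 0.0593.

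**Figure D3:**
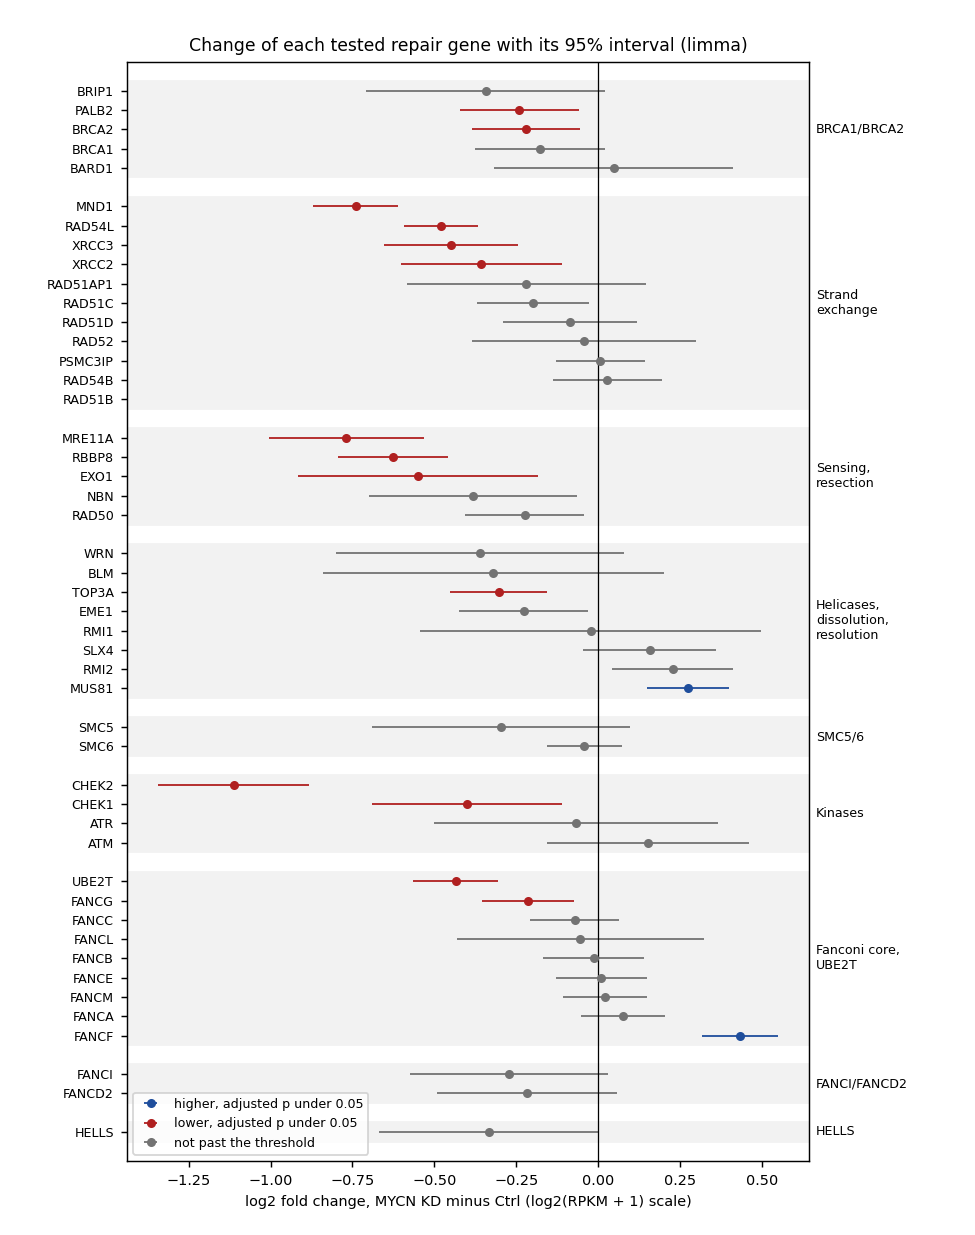
Log2 fold change of each tested repair gene (MYCN KD minus Ctrl, log2(RPKM + 1) scale) with its 95% interval from limma, grouped by role. Red and blue points passed the adjusted p of 0.05 as lower or higher and grey points did not, and RAD51B was not tested. CHEK2 is farthest left at -1.11 and FANCF farthest right at 0.43.

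In the BRCA1 and BRCA2 complexes, 2 of 5 genes fell and the median log2 fold change was -0.22. PALB2, which bridges BRCA1 and BRCA2, was at 5.10 and 5.51 RPKM in Ctrl, against 4.50 and 4.17 RPKM in MYCN KD (log2 fold change -0.24, SE 0.062, limma adjusted p = 0.0484). BRCA2, which prepares single strands for exchange, was low throughout, at 1.80 and 1.64 RPKM in Ctrl, against 1.27 and 1.39 RPKM in MYCN KD (log2 fold change -0.22, SE 0.056, adjusted p = 0.0467). Both calls lay just under the threshold, and both were lost when any one sample was left out. BRCA1, a ubiquitin ligase that favours resection, was at 7.73 and 8.41 RPKM against 7.30 and 6.74 RPKM, and BRIP1, its helicase partner, at 2.37 and 2.98 RPKM against 2.099 and 1.69 RPKM. Neither passed (adjusted p = 0.109 and 0.0985), although their conditions did not overlap. BARD1, which forms the ligase with BRCA1, overlapped between conditions, at 3.47 and 4.23 RPKM in Ctrl, against 4.39 and 3.63 RPKM in MYCN KD.

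Among the genes of strand exchange, 4 of 10 tested genes fell, with a median log2 fold change of -0.21. MND1 (hg19 chr4:154265801-154336270, plus strand) moved most. Its product pairs with that of PSMC3IP, also called HOP2, and the pair assists strand exchange. MND1 was at 10.1 and 9.81 RPKM in Ctrl, against 5.48 and 5.67 RPKM in MYCN KD, a fall of 44.1% (log2 fold change -0.74, SE 0.044, limma adjusted p = 0.00414). PSMC3IP was nearly level at 15.4 and 16.1 RPKM against 16.1 and 15.5 RPKM, with a 95% interval of its log2 fold change from -0.13 to 0.14. An annotated protein-coding gene on the same strand, ENSG00000288637, shares 55.5% of the exonic bases of MND1, and MLX on the opposite strand 30.1% of those of PSMC3IP.

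RAD54L and RAD54B encode related motor proteins of strand exchange, and their values differed in pattern. RAD54L (hg19 chr1:46712133-46744152, plus strand) was at 9.59 and 9.70 RPKM in Ctrl, against 6.66 and 6.60 RPKM in MYCN KD, and fell by 0.48 on the log2 scale (SE 0.038, limma adjusted p = 0.00553). LRRC41 on the opposite strand overlaps 19.9% of the exonic bases of RAD54L. RAD54B overlapped between conditions, at 1.24 and 1.37 RPKM in Ctrl, against 1.42 and 1.28 RPKM in MYCN KD. The 95% interval of its log2 fold change ran from -0.14 to 0.19, and the counting intervals of single RAD54B values, such as 1.11 to 1.37 RPKM for Ctrl replicate 1, were wider than the range of its 4 values. On the log2(RPKM + 1) scale, changes of such low genes are understated. In the annotation, 66.0% of the exonic bases of RAD54B are shared with FSBP on the same strand, and FSBP is listed at 0 in all samples. The RAD54B values implied a gene length of 8477 bases, against 5319 exonic bases in the annotation. Its counting intervals rest on that implied length.

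XRCC2 and XRCC3 belong to different complexes of strand exchange, and both fell. XRCC3 (hg19 chr14:104163946-104181841, minus strand) was at 22.9 and 21.1 RPKM in Ctrl, against 15.2 and 16.5 RPKM in MYCN KD (log2 fold change -0.45, SE 0.070, limma adjusted p = 0.0167). XRCC2 was at 6.42 and 7.20 RPKM against 5.38 and 4.82 RPKM (log2 fold change -0.36, SE 0.083, adjusted p = 0.0394), and its call was lost without Ctrl replicate 2 or MYCN KD replicate 2. RAD51C, a subunit of both complexes, was at 24.9 and 26.5 RPKM against 23.0 and 21.6 RPKM and did not pass (adjusted p = 0.0634). RAD51D, a partner of XRCC2, RAD51AP1, a DNA-binding accessory protein, and RAD52, an annealing protein, had log2 fold changes of -0.09, -0.22 and -0.04 and overlapped between conditions. RAD51B was below the level needed for testing, at 0.494 and 0.479 RPKM in Ctrl, against 0.741 and 0.780 RPKM in MYCN KD. Its 59 to 93 reads per sample give 95% Poisson intervals of 0.381 to 0.630 RPKM in Ctrl replicate 1 and 0.590 to 0.919 RPKM in MYCN KD replicate 1, which overlap. The intervals of 0.364 to 0.618 RPKM in Ctrl replicate 2 and 0.629 to 0.955 RPKM in MYCN KD replicate 2 do not overlap. Without the filter on low values RAD51B was called higher (limma adjusted p = 0.0143), opposite in direction to XRCC2 and XRCC3. For XRCC3, 76.7% of 7507 annotated exonic bases overlap KLC1 on the opposite strand, while the XRCC3 values implied a length of 2639 bases. The strand setting of the read counting is not given in the sources used here.

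The helicases and the genes for dissolution and resolution of joined molecules did not move together. Of 8 genes, 1 fell, 1 rose, and the median log2 fold change was -0.12. TOP3A, the topoisomerase that works with BLM to dissolve crossed strands, was at 16.1 and 15.3 RPKM in Ctrl, against 12.2 and 12.9 RPKM in MYCN KD (log2 fold change -0.30, SE 0.050, limma adjusted p = 0.0191). MUS81, the nuclease that cuts such structures, was at 21.5 and 20.8 RPKM in Ctrl, against 25.4 and 26.3 RPKM in MYCN KD, and rose (log2 fold change 0.28, SE 0.042, adjusted p = 0.0165). The TOP3A call was lost without Ctrl replicate 1, without MYCN KD replicate 1 and with the replicate number as a block (the lowest and highest adjusted p over the alternatives were 1.19e-06 and 0.139), and the MUS81 call without MYCN KD replicate 1, without replicate 2 of either condition and with the block (1.25e-06 to 0.156). EME1, the partner that MUS81 needs for cutting, was at 10.1 and 9.30 RPKM against 7.81 and 8.46 RPKM, with an adjusted p of 0.0650. On the opposite strand, CFL1 overlaps 13.9% of the exonic bases of MUS81, and LRRC59 overlaps 16.4% of those of EME1. SLX4, a scaffold for MUS81 and other nucleases, was at 5.15 and 4.71 RPKM against 5.36 and 5.86 RPKM, with an adjusted p of 0.146. RMI2, which holds the BLM and TOP3A complex together, had its highest values in MYCN KD, at 24.9 and 26.7 RPKM against 31.5 and 29.3 RPKM, and an adjusted p of 0.0564. WRN, a helicase related to BLM, was at 2.04 and 2.73 RPKM against 1.86 and 1.41 RPKM, with an adjusted p of 0.129. BLM and RMI1 had the widest spread between replicates of the set, with an SE of 0.18 for each. BLM was at 4.93 and 6.49 RPKM against 4.94 and 3.80 RPKM, and RMI1 at 5.70 and 7.41 RPKM against 7.25 and 5.62 RPKM, so that both overlapped.

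SMC5 and SMC6 form the backbone of a ring complex that helps to untangle recombining chromosomes. SMC6 lies on the short arm of chromosome 2 (hg19 chr2:17845079-17981509, minus strand), 1.76 Mb beyond the end of MYCN on the same chromosome. Its levels were 5.03 and 4.97 RPKM in Ctrl, against 4.80 and 4.87 RPKM in MYCN KD. The MYCN KD values of SMC6 were both lower, by 3.41% on average, with a log2 fold change of -0.04 and a 95% interval from -0.16 to 0.07 (limma adjusted p = 0.428). SMC5 was at 4.08 and 5.03 RPKM against 3.88 and 3.16 RPKM, with a log2 fold change of -0.30 and a wider interval, from -0.69 to 0.10 (adjusted p = 0.152).

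Both effector kinases fell, while the 2 kinases that activate them did not pass. CHEK2, activated mainly by ATM, showed the largest change of the set. It was at 15.8 and 14.3 RPKM in Ctrl, against 6.11 and 6.75 RPKM in MYCN KD, a level 57.3% lower (log2 fold change -1.11, SE 0.079, limma adjusted p = 0.00471). The gene lies at hg19 chr22:29083731-29138410 on the minus strand and has 7 named pseudogene copies in the annotation, so the division of its reads among copies is uncertain. CHEK1, activated mainly by ATR, was at 16.4 and 18.7 RPKM in Ctrl, against 13.9 and 12.2 RPKM in MYCN KD (log2 fold change -0.40, SE 0.098, adjusted p = 0.0438), and its call was lost without Ctrl replicate 2 or MYCN KD replicate 2. ATM was at 2.69 and 3.19 RPKM against 3.65 and 3.10 RPKM, and ATR at 3.61 and 4.57 RPKM against 4.29 and 3.42 RPKM. The conditions overlapped for both, with log2 fold changes of 0.15 for ATM (95% interval -0.16 to 0.46) and -0.07 for ATR (-0.50 to 0.37).

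The Fanconi genes were centred near 0. The 9 genes of the core complex and UBE2T had a median log2 fold change of -0.01, with 2 that fell and 1 that rose. UBE2T, the ubiquitin-conjugating enzyme of the pathway and the most abundant transcript of the set (hg19 chr1:202300672-202311112, minus strand), was at 157.8 and 164.9 RPKM in Ctrl, against 121.6 and 116.7 RPKM in MYCN KD (log2 fold change -0.43, SE 0.044, limma adjusted p = 0.00765). FANCG, a core subunit, was at 21.8 and 20.8 RPKM against 17.8 and 18.7 RPKM (log2 fold change -0.21, SE 0.048, adjusted p = 0.0354). This call was lost when any one sample was left out. FANCF, an adaptor of the core complex encoded by a gene without introns (chr11:22644079-22647369, minus strand), was at 5.05 and 4.97 RPKM in Ctrl, against 7.06 and 7.17 RPKM in MYCN KD, and rose (log2 fold change 0.43, SE 0.039, adjusted p = 0.00654). Of its exonic bases, 9.57% overlap GAS2 on the opposite strand.

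FANCL, the ubiquitin ligase of the core, was at 3.18 and 3.92 RPKM in Ctrl, against 3.72 and 3.04 RPKM in MYCN KD, with an interval from -0.43 to 0.32. The other core subunits were measured more tightly. FANCA, FANCB, FANCC, FANCE and FANCM, the DNA translocase that anchors the core, had log2 fold changes from -0.07 to 0.08, with SEs of 0.043 to 0.053, and all of their 95% intervals lay between -0.21 and 0.21. FANCI and FANCD2, the paired substrates of the core complex, had all MYCN KD values below all Ctrl values without passing. FANCI was at 23.0 and 26.3 RPKM against 21.5 and 18.9 RPKM (log2 fold change -0.27, limma adjusted p = 0.108), and FANCD2 at 4.17 and 4.80 RPKM against 3.97 and 3.47 RPKM (log2 fold change -0.22, adjusted p = 0.140). HELLS, a chromatin remodeler that promotes resection, was at 10.6 and 12.3 RPKM against 9.55 and 8.22 RPKM (log2 fold change -0.33, adjusted p = 0.0884). Over all 11 Fanconi genes 2 fell and 1 rose, with a median log2 fold change of -0.05, and over the other 35 tested genes 12 fell and 1 rose, with a median of -0.23. Whether these 2 groups differ was not tested.

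Ratios between genes whose products work as partners were taken within each sample, from RPKM values, which are per length. The ratio of PSMC3IP to MND1 was 1.52 and 1.64 in Ctrl, against 2.95 and 2.73 in MYCN KD. MUS81 stood to EME1 at 2.14 and 2.23 in Ctrl, against 3.25 and 3.10 in MYCN KD. RAD50 to MRE11A went from 0.735 and 0.606 in Ctrl to 0.953 and 1.15 in MYCN KD, and NBN to MRE11A from 0.728 and 0.767 to 1.05 and 0.9999. In these 4 pairs the partners changed by unequal amounts and the conditions were apart. FANCI to FANCD2 held at 5.50 and 5.47 against 5.41 and 5.45, narrowly apart, although each gene alone varied more between replicates. SMC6 to SMC5 was 1.235 and 0.988 against 1.237 and 1.54, also narrowly apart. BRCA1 to BARD1 was apart as well, at 2.23 and 1.99 against 1.66 and 1.86. For PALB2 to BRCA2 and RMI2 to RMI1 the conditions overlapped. With 2 samples a condition, an exact two-sided permutation test cannot go below p = 0.333, which was its value for each of the 7 ratios whose conditions were apart, so none can pass.

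**Figure D4:**
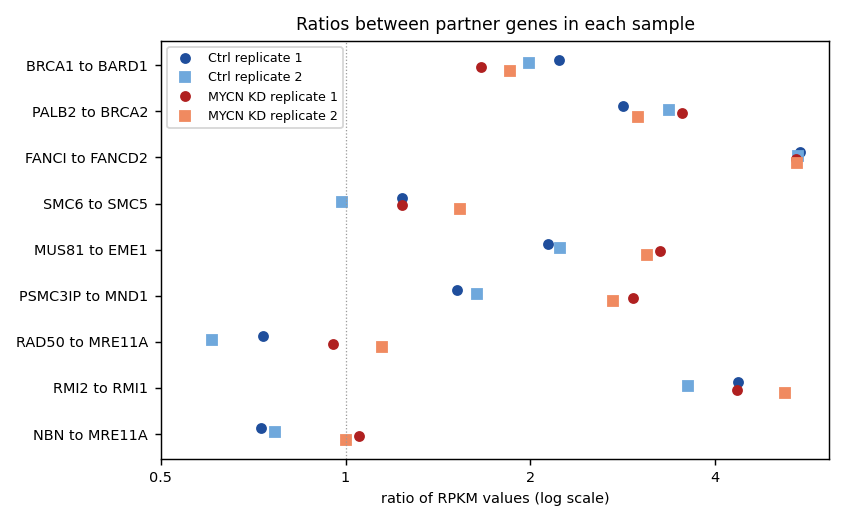
Ratios of RPKM values between partner genes in each sample (log scale). Circles and squares are replicates 1 and 2, blue is Ctrl and red or orange is MYCN KD, and the dotted line marks a ratio of 1. PSMC3IP to MND1 is 1.52 and 1.64 in Ctrl but 2.95 and 2.73 in MYCN KD, while the 4 values of FANCI to FANCD2 lie on top of each other.

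The replicate pattern of the whole series was also present in the repair genes. For 32 of the 46 tested genes (69.6%), Ctrl replicate 2 was above Ctrl replicate 1 and MYCN KD replicate 1 above MYCN KD replicate 2, as for 56.5% of all tested genes. For the other 14 genes both differences had the opposite sign. BLM and RMI1 lay far out on this axis and SMC6, MND1 and RAD54L near its centre. The part of this axis in the calls was not tested.

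**Figure D5:**
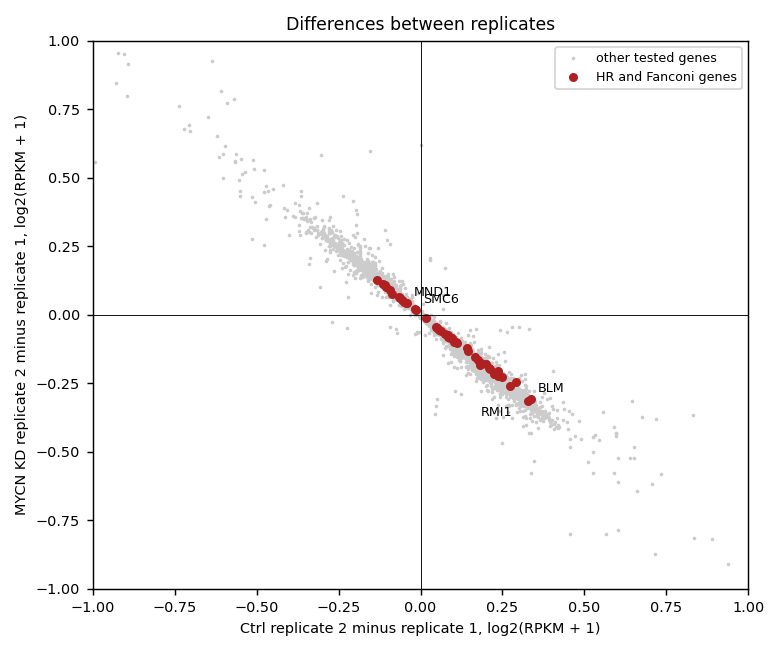
Difference between replicates 2 and 1 in Ctrl (horizontal) and in MYCN KD (vertical), both on the log2(RPKM + 1) scale, for the 46 tested repair genes (red) and the other tested genes (grey). The points follow a falling diagonal, with a correlation of -0.98 over 11411 genes, and 10 grey points lie outside the axes.

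Promoter sequences from RefSeq (GRCh38.p14) were available for 42 of the 47 genes, in 57 promoters, each taken over the 250 bases before the start of transcription. MYC proteins bind the E-box CACGTG, which reads the same on both strands. The study defines promoters over a longer window that runs past the start. For those of FEN1, SMC6 and RAD54B, it reports MYCN binding and a significant drop of the active histone mark H3K9ac after knockdown. A promoter without a match here can thus still be bound. The E-box was found in 1 of the 57 promoters (1.75%), against 6.34% of all 35116 promoters and 8.59% of those of tested genes. Among repair genes that fell it was in 1 of 20 promoters (5.0%), against 11.7% for all tested genes that fell. Among tested genes that rose the share was 6.64%. The 1 promoter was that of BRCA2, shown here because it is the single match in the set, with the E-box in capitals from 48 to 43 bases before the start (GRCh38.p14 chr13:32315258-32315507, plus strand).
BRCA2: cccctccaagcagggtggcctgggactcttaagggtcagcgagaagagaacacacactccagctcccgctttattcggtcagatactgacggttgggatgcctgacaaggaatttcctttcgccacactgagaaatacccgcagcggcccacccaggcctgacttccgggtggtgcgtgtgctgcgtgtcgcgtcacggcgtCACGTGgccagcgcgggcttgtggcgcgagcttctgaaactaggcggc

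E2F proteins drive genes of S phase, and 3 forms of their site, TTTGGCGC, TTTCCCGC and TTTCGCGC, were searched on both strands. A site was found in 4 of the 57 promoters (7.02%), against 2.32% of all promoters and 3.57% of those of tested genes. Among repair genes that fell it was in 1 of 20 promoters (5.0%), against 4.74% for all tested genes that fell. Among repair genes that did not pass it was in 3 of 33 (9.09%), against 3.78% for all tested genes that did not pass. The 4 promoters were those of MND1, which fell, and of SMC6, FANCC and HELLS, which did not pass. The sites are shown on the strand of the gene with the flanking bases, to set the one gene that fell beside those that did not, and capitals mark the site. The windows lie at chr4:153344634-153344681 (plus) for MND1, chr2:17753850-17753897 (minus) for SMC6, chr9:95317854-95317901 and chr9:95317728-95317775 (minus) for FANCC, and chr10:94545692-94545739 and chr10:94545760-94545787 (plus) for HELLS. A match describes letters in this window and was not tested as a site of binding.
MND1: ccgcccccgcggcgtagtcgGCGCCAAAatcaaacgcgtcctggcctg
SMC6: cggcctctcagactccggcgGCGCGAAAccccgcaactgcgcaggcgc
FANCC, upstream site: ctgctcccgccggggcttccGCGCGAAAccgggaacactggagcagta
FANCC, downstream site: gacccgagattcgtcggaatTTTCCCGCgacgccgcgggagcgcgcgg
HELLS, upstream site: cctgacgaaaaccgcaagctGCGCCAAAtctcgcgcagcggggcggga
HELLS, downstream site: gtatcgcgagatgacaggatTTTCCCGC

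The 4 genes thus held E2F forms at different distances, from 34 to 27 bases before the start in MND1, 67 to 60 bases in SMC6, and a pair of sites each in FANCC and HELLS. Their log2 fold changes were -0.74, -0.04, -0.07 and -0.33.

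Around the set stands a wider list of 70 repair genes, of which 62 were tested, 16 fell (25.8%, against 22.8% of all tested genes) and 7 rose (11.3%, against 25.3%), with a median log2 fold change of -0.04. The share of falling genes was thus near that of all genes. Among the genes of this list that passed in limma, the largest falls were those of TIPIN (-0.73), a fork protection protein, RFWD3 (-0.64), a ubiquitin ligase that acts on RPA, PARP1 (-0.59), a sensor of strand breaks, DNA2 (-0.55), a resection nuclease that acts beside EXO1, and FEN1 (-0.54), the flap nuclease of replication. Their adjusted p-values ran from 0.00359 for TIPIN to 0.0437 for DNA2. FEN1 was at 58.9 and 62.4 RPKM in Ctrl, against 42.5 and 40.2 RPKM in MYCN KD. Among the genes that passed, the largest rises were those of the helicase RECQL (0.47), the Fanconi accessory protein FAAP24 (0.41) and the checkpoint clamp loader RAD17 (0.33), with adjusted p-values of 0.0161, 0.0317 and 0.0276. The 16 falls became 8 after rescaling to equal totals and 10 without Ctrl replicate 2 or MYCN KD replicate 2, and the 7 rises became 3 without Ctrl replicate 1, 2 without MYCN KD replicate 1 and 4 without MYCN KD replicate 2.

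Markers of proliferating cells moved in the direction of the falling repair genes. Of 24 such markers 17 fell (70.8%, against 22.8% of all tested genes), with a median log2 fold change of -0.46. Their summed level was 2463 and 2481 RPKM in Ctrl, against 1801 and 1803 RPKM in MYCN KD. MKI67, the defining marker, was at 42.9 and 46.5 RPKM against 46.5 and 43.1 RPKM, with a log2 fold change of 0.00 and an adjusted p of 0.978. TOP2A, MCM5, RRM2, CCNE2, CDK1 and BUB1 did not pass either. Of the 11 adrenergic markers 7 rose (63.6%, against 25.3% of all tested genes) and 1 fell (9.09%, against 22.8%). The part of the cell cycle in the changes of the repair genes was not tested.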

How the data were processed

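RNA-seq of 2 Ctrl and 2 MYCN KD samples of BE(2)C cells was analysed, grouped by the sample labels. The authors aligned the reads with HISAT2 2.1.0 to hg19, counted them on RefSeq genes with featureCounts, normalized them with DESeq2 and RUVSeq, and deposited RPKM values per sample. The RUVSeq variant, the number of factors removed, the strand setting and the handling of reads with several matches are not given in the sources used here.

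A pseudocount of 1 was added to each value before taking log2. The condition effect was fitted by limma 3.58.1 (R 4.3.3) through lmFit and eBayes, with a trend and no block. Genes whose 4 samples averaged below 1 RPKM were left out, and p-values were adjusted by Benjamini-Hochberg over the remaining 11411, at a threshold of 0.05. Fold changes on this scale understate the change of low genes. The values of all 19908 genes above 0 were whole multiples (within 0.001 read) of the value of 1 read, which gave totals of 29055819 to 34142988 normalized reads. The reads of each gene are the smallest whole-number solution, and intervals from them cover counting error only.

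The 47 genes, the wider repair list and the marker lists were chosen with earlier results of these data known, and no test over a list was made. All 47 genes are named. Values in every sample are given for the genes with the largest falls and all rises past the threshold, for SMC6 and RAD54B, and for at least 1 gene of each role. Of other genes, MYCN, FEN1 and the 5 largest falls and 3 largest rises of the wider list are named. The values of 1 gene in the wider list are not reported here. Further values were added after they were seen. Gene positions and overlaps came from GENCODE release 44 lifted to GRCh37. Overlap shares are of all GENCODE exons of a gene, while the reads were counted on RefSeq genes. The shares thus need not hold for the counted bases, such as an implied length of 1106 bases for MND1 against 1511 exonic bases. Promoters came from RefSeq (GRCh38.p14), without RAD54B, NBN, WRN, RMI2 and FANCI. The alternatives were another pseudocount (0.1), no filter and a filter at 5 RPKM, rescaling to equal totals, quantile normalization, eBayes without a trend, the replicate block, and leaving out each sample. Chosen after seeing the data were a crossed block and voom (limma) on whole reads. Python 3.11.15 with pandas 2.3.3, numpy 2.4.6, scipy 1.17.1 and matplotlib 3.10.9 was used.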

Additional observations from a re-analysis of the deposited data

How the results depend on the processing

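Fits with a pseudocount of 0.1, without a trend, or with voom on whole reads kept the same 16 calls. With no filter on low values 9 repair genes were lower, and 10 genes of the wider list were lower and 4 higher. After rescaling to equal totals 9 repair genes (19.6%) and 8 of 62 genes of the wider list were lower, against 18.6% of all tested genes. The filter at 5 RPKM tested fewer genes and gave 4 higher calls among 41 genes of the wider list and 1868 (23.8%) over all genes. Of 29 repair genes 12 were then lower (41.4%, against 26.8% of all tested genes). Quantile normalization kept the 16 calls and added 8 (BRCA1, BRIP1, FANCD2, HELLS, NBN, RMI2, SMC5 and WRN). Lower calls then made up 45.7% of the repair genes, against 26.3% of all tested genes, and higher calls 6.52%, against 25.3%. The same replicate numbers deviated in opposite directions (correlation -0.98), and the labels name no shared batch or day, so the numbers were not taken as pairs. The replicate block gave 9 lower (19.6%, against 16.2% of all tested genes) and 1 higher (2.17%, against 18.2%) repair genes, without the calls of BRCA2, FANCG, MUS81, PALB2, TOP3A and XRCC2, and 8 lower and 2 higher genes in the wider list. With the replicate block crossed, an alternative picked once the data had been seen, there were 34 lower and 11 higher repair genes, 37 and 22 in the wider list, and 5262 and 5910 over all genes. When single samples were left out, the repair genes had 9 to 18 lower (19.6% to 39.1%, against 19.0% to 21.0% of all tested genes) and 1 to 2 higher calls.

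The wider list then had 10 to 13 lower and 2 to 5 higher calls. Genes near 0 changed sign. Under quantile normalization the log2 fold changes were -0.029 for BARD1, -0.10 for RAD54B, -0.017 for FANCE and -0.087 for FANCM. After rescaling they were 0.0029 for RAD52, 0.031 for RMI1, 0.0091 for SMC6 and 0.025 for FANCB. With single samples left out they ranged from -0.065 to 0.16 for BARD1, -0.15 to 0.063 for RAD52, -0.014 to 0.071 for RAD54B, -0.022 to 0.036 for PSMC3IP, -0.19 to 0.14 for RMI1, -0.20 to 0.070 for ATR, -0.052 to 0.024 for FANCB, -0.018 to 0.038 for FANCE, -0.17 to 0.063 for FANCL and -0.0019 to 0.044 for FANCM. The cause of these moves was not tested. Levels under 1 RPKM, as for RAD51B, are limited by 59 to 93 reads.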

Other observations

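In the wider repair list, 8 genes were below the mean of 1 RPKM and were not tested. DMC1, a gene of meiotic recombination, was at 0.351 and 0.437 RPKM in Ctrl, against 0.275 and 0.220 RPKM in MYCN KD. RAD51AP2 was listed at 0 in all samples, as were SLX1A and SLX1B, which are near-identical copies of a nuclease gene. MDC1, which reads the mark of broken chromatin, was listed at 0.003 to 0.018 RPKM, and the step between its values implied a gene length of 58943 bases. No explanation for these low values was tested.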
